A study of Homo sapiens with 12 samples.

Results

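The S100 genes encode small calcium-binding proteins, most of them in a cluster on chromosome 1q21. Examined here were 10 genes of that cluster, S100A1, S100A2, S100A3, S100A4, S100A6, S100A8, S100A9, S100A11, S100A13 and S100A16, taken by symbol from a count table of 58721 genes. The libraries came from EW8 and TC71, which are Ewing sarcoma cell lines, a tumor type driven by the fusion oncoprotein EWS-FLI1. Both lines had been infected first with a lentivirus carrying the Tet-On 3G transactivator behind the EF1 alpha promoter and then with a TRE3G vector that encodes c-Jun and c-Fos joined by a self-cleaving peptide, and had been selected with geneticin and puromycin. All 4 groups therefore carried the construct, although the labels give the genotype of the vehicle libraries as WT and that of the doxycycline libraries as AP1_overexpression. Cells were given doxycycline at 2000 ng/ml or its vehicle, DMSO, for 72 h, with 3 libraries for each line and treatment and 12 in all. The comparison asks which transcripts move when c-Jun and c-Fos, subunits of the transcription factor AP-1, are switched on. No doxycycline-treated cells without the transgenes were used here, so doxycycline and the transgenes cannot be told apart.

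An S100 protein binds calcium through a pair of EF-hand loops, one canonical and one with a sequence particular to the family, and usually works as a dimer. Calcium exposes a hydrophobic face that docks onto target proteins, among them annexins, the giant scaffold AHNAK, non-muscle myosin and p53. Several members also leave the cell by routes that bypass the secretory pathway and act on receptors such as RAGE (gene AGER) and TLR4. The family is known in tumor biology for S100A4, which was described with metastasis and mesenchymal cells, and S100A8 with S100A9, the subunits of calprotectin, are abundant in neutrophils and monocytes.

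Each library held between 42860665 and 60853649 counts, with the mates of a pair counted separately. Values are given as CPM, the count of a gene scaled to a common library size with TMM factors, and 6 counts, the floor used here, were 0.09663 to 0.1454 CPM. The log2 fold change of JUN was 4.46 in EW8 and 5.19 in TC71, and that of FOS was 4.87 and 7.08, as the labels of the induced libraries say. All 8 listed markers of Ewing sarcoma lines were above the floor in every group. TC71 vehicle replicate 1 stood somewhat apart, with a root-mean-square log2 distance to its group mates of 0.645 against 0.499 to 0.590 for the other libraries. The labels do not say that replicates came from separate cultures, so the p-values measure the spread between these libraries, which may be technical.

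Of the 10 genes, 8 had enough counts to be tested, and S100A8 and S100A9 had not. A call needed an edgeR quasi-likelihood p under 0.05, after Benjamini-Hochberg adjustment over 21013 genes, and a log2 fold change beyond 1 in either direction. In EW8, 4 of the 8 tested genes were called higher with doxycycline and 0 lower, where 11.4% of all tested genes were called higher and 3.38% lower. In TC71, 7 of 8 were called higher and 0 lower, against 12.3% and 3.67% of all tested genes. S100A2, S100A3, S100A6 and S100A16 were called higher in both lines, as were 7.44% of all tested genes. In EW8, S100A4, S100A11 and S100A13 also rose by the adjusted p alone, as did 21.9% of all tested genes with the called ones included, but stayed under the fold limit. S100A1 passed in neither line. The median log2 fold change of the 8 genes was 2.21 in EW8 and 4.04 in TC71, where the median of all tested genes was -0.03 and 0.00. With S100A6 set to its lower bound in TC71, the median there was 2.82. A gene can pass the filter on low counts through its doxycycline libraries alone, so counts and medians over the 8 genes are descriptions. In bulk RNA a change in the number of expressing cells and a change in the RNA per cell cannot be told apart.

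**Figure D1:**
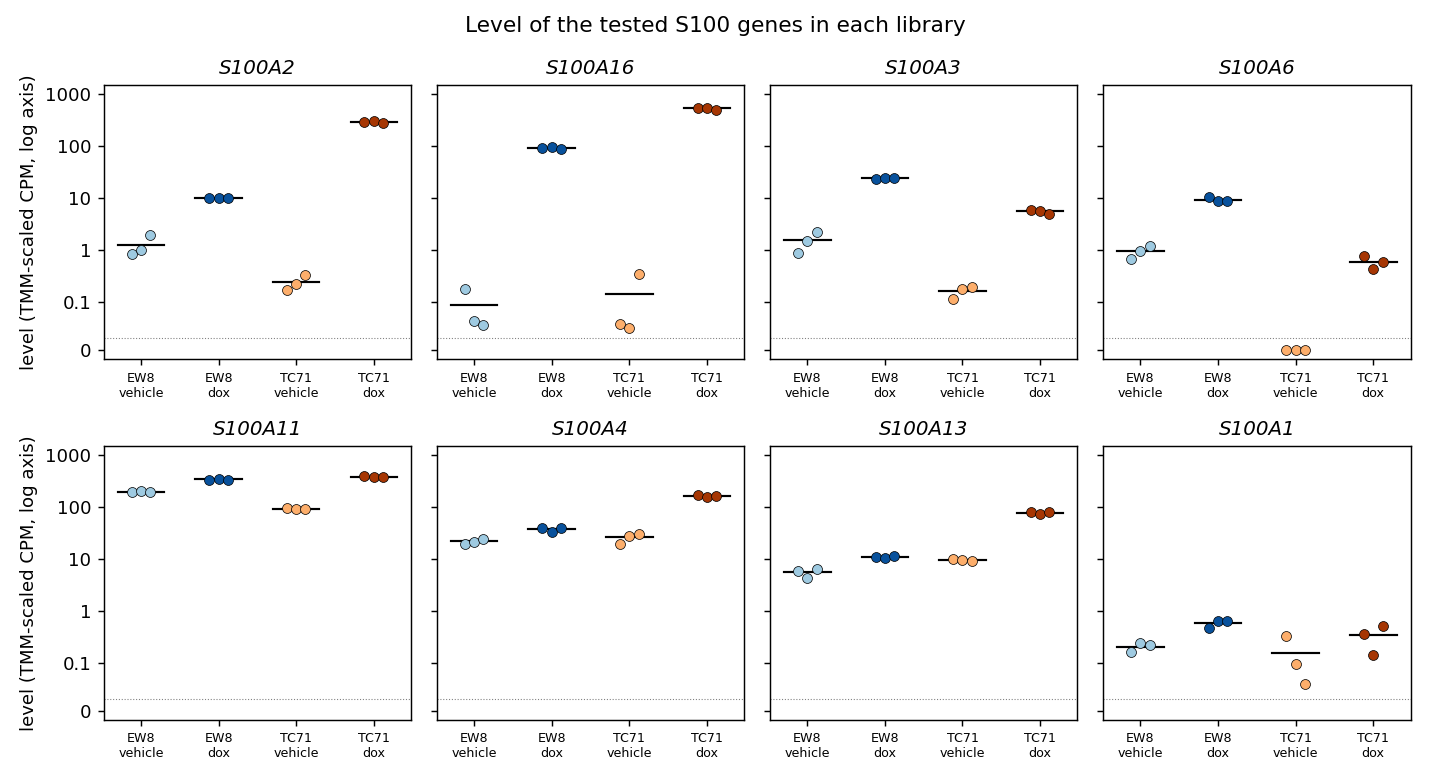
Level of each of the 8 tested S100 genes in every library, in TMM-scaled CPM on a log axis, with 1 panel per gene and 1 point per library. Bars are group means of 3 libraries and points under the dotted line are libraries with 0 counts. S100A16 sits at or under 0.349 CPM in all vehicle libraries and at or above 89.5 CPM in all doxycycline libraries, whereas S100A1 stays under 1 CPM throughout.

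Sequence just upstream was looked at because 8 of the 10 genes lie on the same strand of one region and most of them moved together. RefSeq (GRCh38.p14) gives 16 start windows for the 10 genes, each from 250 bases before to 50 bases after a transcript start. The AP-1 motif, spelled TGANTCA on either strand, was present in 2 of the 16 windows, 1 of S100A2 and the single window of S100A3, and 7.71% of all 35116 RefSeq windows hold it. The CRE motif TGACGTCA, which some AP-1 dimers containing ATF proteins bind, was in 0 of 16 windows (1.85% of all windows), and the repeat GGAAGGAA, a short form of the element bound by EWS-FLI1, was also in 0 of 16 (3.67% of all). The window of S100A2 that matched (chr1:153565795-153566094, minus strand) and that of S100A3 (chr1:153549209-153549508, minus strand) are shown because they hold the motif. The first of 2 windows of S100A16 (chr1:153613088-153613387, minus strand) is shown because this gene had the largest fitted fold change of the members in both lines and no match in either window. Capitals mark the AP-1 match, which begins at offset -52 from the start base in S100A2 and at -225 in S100A3.
S100A2: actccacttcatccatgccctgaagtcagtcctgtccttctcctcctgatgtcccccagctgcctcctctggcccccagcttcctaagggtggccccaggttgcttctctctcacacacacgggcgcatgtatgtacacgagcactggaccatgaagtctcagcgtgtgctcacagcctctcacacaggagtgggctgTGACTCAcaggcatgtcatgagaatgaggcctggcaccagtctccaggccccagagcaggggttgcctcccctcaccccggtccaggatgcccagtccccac
S100A3: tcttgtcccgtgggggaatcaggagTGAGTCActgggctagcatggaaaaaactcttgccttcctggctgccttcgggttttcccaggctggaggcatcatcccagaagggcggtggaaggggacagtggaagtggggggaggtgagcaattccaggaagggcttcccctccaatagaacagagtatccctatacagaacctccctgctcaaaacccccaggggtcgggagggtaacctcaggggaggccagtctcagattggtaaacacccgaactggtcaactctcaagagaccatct
S100A16: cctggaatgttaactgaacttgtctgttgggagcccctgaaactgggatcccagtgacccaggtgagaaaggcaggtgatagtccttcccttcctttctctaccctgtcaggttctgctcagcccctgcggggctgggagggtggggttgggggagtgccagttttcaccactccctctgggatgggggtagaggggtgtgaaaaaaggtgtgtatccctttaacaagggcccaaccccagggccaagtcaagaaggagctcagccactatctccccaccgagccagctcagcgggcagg
A match is a description of the letters and not evidence of a bound site, and windows without one say nothing about sites elsewhere.

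S100A16, a broadly expressed member in which only one EF-hand is thought to bind calcium, went from near 0 to one of the most abundant of the 10 transcripts. The gene lies at chr1:153606886-153613145 on the minus strand (hg38). In EW8 vehicle libraries its level was 0.18, 0.0436 and 0.0359 CPM, which are 8, 2 and 2 counts. With doxycycline EW8 reached 91.84, 98.06 and 89.5 CPM. TC71 vehicle libraries held 0.0382, 0.0322 and 0.349 CPM, from 2, 2 and 18 counts, and TC71 doxycycline libraries held 539, 548 and 502 CPM. Every doxycycline library stood far above every vehicle library, and the 2 vehicle libraries with more than 2 counts were EW8 replicate 1 and TC71 replicate 3. The log2 fold change was 10.10 (SE 0.25, edgeR adjusted p = 4.23e-16) in EW8, and that in TC71 was 11.94 (SE 0.22, adjusted p = 9.38e-18). These folds depend on a few counts: that of EW8 became 11.12 without EW8 vehicle replicate 1, and that of TC71 13.74 without TC71 vehicle replicate 3. The difference between the responses, TC71 minus EW8, was 1.84 (SE 0.86, adjusted p = 0.156) and did not pass. It passed at 3.60 (adjusted p = 0.00159) when TC71 vehicle replicate 3 was left out, and at 1.83 (adjusted p = 0.0139) with no filter on low counts.

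S100A2, known from stratified epithelium and as a binder of p53, showed the widest gap between the responses of the lines among the tested members. It lies at chr1:153561108-153567890, minus strand. EW8 vehicle libraries held 0.857, 0.981 and 1.92 CPM and EW8 doxycycline libraries 10.06, 9.88 and 9.82 CPM. TC71 vehicle libraries held 0.172, 0.225 and 0.33 CPM, from 9, 14 and 17 counts, and TC71 doxycycline libraries 294, 306 and 279 CPM. TC71 was thus the lower line with vehicle and the higher line with doxycycline, and no library of one group overlapped another group. The log2 fold change was 2.94 (SE 0.17, edgeR adjusted p = 5.87e-11) in EW8, and that in TC71 was 10.23 (SE 0.19, adjusted p = 1.05e-17). The responses differed by 7.29 (SE 0.32, adjusted p = 1.63e-11).

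S100A3, abundant in the hair cuticle, lies within the span of S100A4 at chr1:153547329-153549372 on the minus strand, with no shared exon bases. EW8 vehicle libraries held 0.88, 1.5 and 2.25 CPM and EW8 doxycycline libraries 23.77, 24.45 and 24.41 CPM. In TC71 the levels were 0.115, 0.177 and 0.194 CPM with vehicle, from 6, 11 and 10 counts, and 5.94, 5.76 and 5.01 CPM with doxycycline. Here EW8 was the higher line under both treatments, and the groups did not overlap. The log2 fold change was 3.95 in EW8 (SE 0.22, edgeR adjusted p = 6.02e-11), while TC71 gave 5.08 (SE 0.30, adjusted p = 1e-10). A difference of 1.13 between the responses (SE 0.41) did not pass, with adjusted p = 0.0626. This call depended on the setting: it passed with DESeq2 (1.10, adjusted p = 0.0364), with no filter on low counts (1.12, adjusted p = 0.0161) and without EW8 vehicle replicate 1 (1.40, adjusted p = 0.00561), and the difference was 0.64 (adjusted p = 0.255) without EW8 vehicle replicate 3.

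S100A6, or calcyclin, binds annexins and the ubiquitin ligase adaptor CACYBP. It lies at chr1:153534599-153536244 on the minus strand and shares 23 exon bases with a long non-coding RNA, ENSG00000238279. EW8 vehicle libraries held 0.677, 0.959 and 1.22 CPM, and EW8 doxycycline libraries 10.54, 8.72 and 8.75 CPM, a log2 fold change of 3.28 (SE 0.27, edgeR adjusted p = 4.6e-08). All 3 TC71 vehicle libraries held 0 counts, and the TC71 doxycycline libraries held 32, 18 and 26 counts, or 0.776, 0.43 and 0.592 CPM. The gene was called in TC71 (adjusted p = 3.78e-07), where its mean with doxycycline stood 5.15-fold above the floor of 6 counts per library. EW8 vehicle libraries lay at or above the TC71 doxycycline libraries for the most part, and 0.677 CPM in EW8 vehicle replicate 1 fell inside the TC71 doxycycline range. The test of the difference between the responses passed (fitted value 4.60, SE 1.12, adjusted p = 0.00787), but a bound of 5.15-fold lies under the 9.71-fold rise of EW8, so the measured levels do not settle which line responded more.

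S100A11, a partner of annexins that is widely expressed, was the most abundant member in every group per exon length. Its span is chr1:152032506-152047907, minus strand, more than a megabase from the other members. Levels were 194, 201 and 195 CPM in EW8 vehicle libraries and 332, 345 and 333 CPM in EW8 doxycycline libraries. TC71 libraries held 93.03, 91.18 and 91.41 CPM with vehicle and 384, 382 and 374 CPM with doxycycline. The libraries of each group lay close together and apart from those of the other groups. In EW8 the log2 fold change was 0.78 (SE 0.05, edgeR adjusted p = 1.04e-10), under the fold limit, and in TC71 it was 2.05 (SE 0.05, adjusted p = 1.47e-16). The responses differed by 1.27 (SE 0.06, adjusted p = 1.27e-10).

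S100A4, the metastasis-associated member that binds non-muscle myosin, lies at chr1:153543613-153550136 on the minus strand. EW8 held 19.51, 21.03 and 24.41 CPM with vehicle and 39.83, 32.69 and 38.39 CPM with doxycycline. TC71 held 19.67, 27.89 and 29.97 CPM with vehicle and 169.8, 152 and 161 CPM with doxycycline. The vehicle groups of the 2 lines overlapped, and both doxycycline groups stood above them, TC71 by far the more. The rise was 0.77 (SE 0.12, edgeR adjusted p = 5.42e-05) in EW8, under the fold limit, and 2.64 (SE 0.13, adjusted p = 4.35e-12) in TC71 on the log2 scale. The difference of 1.87 (SE 0.17) passed with adjusted p = 3.61e-07.

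S100A13, which takes part in the unconventional release of FGF1 and interleukin-1 alpha, lies at chr1:153618787-153631360 on the minus strand. It shares 33.5% of its exon bases with S100A1 and the transcript ENSG00000271853, and reads on such bases were not counted for either gene. EW8 libraries held 5.89, 4.23 and 6.5 CPM with vehicle and 10.99, 10.57 and 11.37 CPM with doxycycline. TC71 libraries held 10.02, 9.63 and 9.26 CPM with vehicle and 78.01, 74.06 and 79.63 CPM with doxycycline. Treatment brought EW8 to just above the level of TC71 vehicle libraries, and the TC71 doxycycline libraries stood well beyond both. The log2 fold change was 0.98 (SE 0.12, edgeR adjusted p = 2.24e-06) in EW8, just under the limit and over it in 9 of 20 alternative settings, and 3.00 (SE 0.12, adjusted p = 2.13e-13) in TC71. The responses differed by 2.02 (SE 0.16, adjusted p = 6.6e-08).

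S100A1, known from heart and skeletal muscle as a modulator of calcium cycling, lies on the plus strand at chr1:153627926-153632039 and overlaps S100A13. Strand was not used in the counting, so its few reads cannot be told apart from reads of S100A13 transcripts outside the shared exon bases. EW8 libraries held 0.158, 0.24 and 0.216 CPM with vehicle and 0.465, 0.632 and 0.639 CPM with doxycycline. TC71 libraries held 0.325, 0.0966 and 0.0388 CPM with vehicle and 0.364, 0.143 and 0.501 CPM with doxycycline. The EW8 groups did not overlap and the TC71 groups did. The log2 fold change was 1.49 (SE 0.69, edgeR adjusted p = 0.0921) in EW8, and that in TC71 was 1.13 (SE 0.71, adjusted p = 0.217). It passed in TC71 at 2.17 (adjusted p = 0.0422) without TC71 vehicle replicate 1, and in EW8 at 1.53 (adjusted p = 0.0223) when the 6 EW8 libraries were fitted alone.

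The calprotectin genes were at the floor throughout. S100A8 (chr1:153390032-153391188, minus strand) had 0 counts in all 12 libraries, and S100A9 (chr1:153357854-153361027, plus strand) had 2 counts in each of EW8 doxycycline replicates 2 and 3 and 0 in the other libraries. The floor of 6 counts, at most 0.1454 CPM in any library, covers counting error only. Of the myeloid markers, ELANE and FCGR3A were at the floor in all groups, while PTPRC, the common leukocyte antigen, averaged 65.85 CPM in EW8 vehicle libraries and made up nearly all of that list's summed level of 61.3 to 70.37 CPM. The summed myeloid level was 78.04 to 82.44 CPM in EW8 doxycycline libraries, 0.582 to 0.934 CPM in TC71 vehicle libraries and 1.87 to 2.63 CPM in TC71 doxycycline libraries. The myeloid markers did not move as one. With vehicle and doxycycline, CSF1R averaged 0.602 and 2.11 CPM in EW8 and 0.317 and 1.3 CPM in TC71. ITGAM averaged 0.209 and 2.02 CPM in EW8 and 0.0473, at the floor, and 0.438 CPM in TC71. In EW8, MPO averaged 0.182 and 0.0477 CPM and LYZ 0.13 and 0.0272 CPM.

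**Figure D2:**
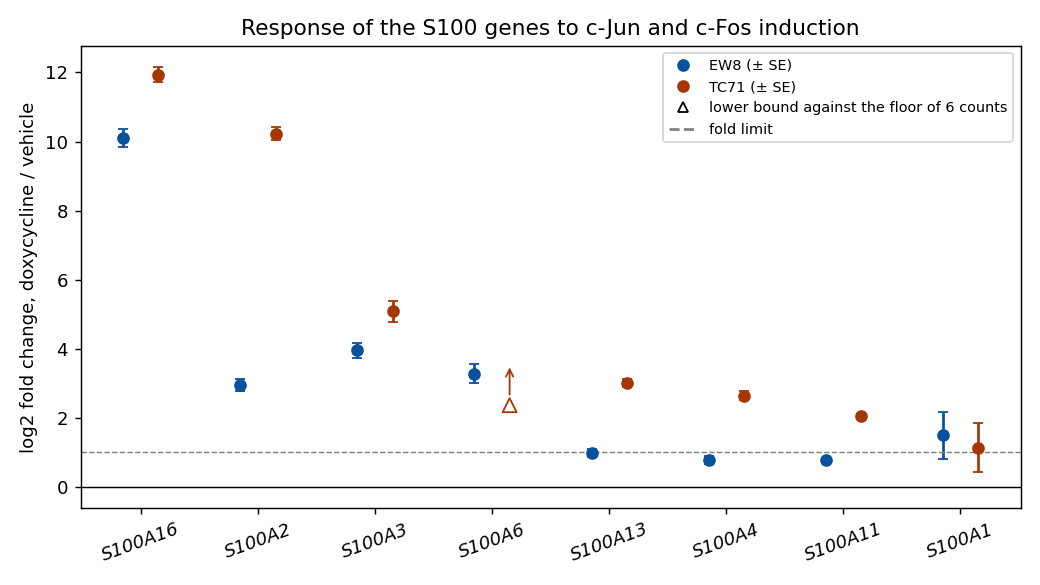
Log2 fold change of each tested S100 gene, doxycycline against vehicle, in EW8 and TC71, with standard errors from the edgeR fit. The dashed line is the fold limit of 1 on the log2 scale, and the open triangle is the lower bound for S100A6 in TC71, where all vehicle libraries held 0 counts. S100A2 is at 2.94 in EW8 and 10.23 in TC71, and S100A4, S100A11 and S100A13 lie under the limit in EW8 only.

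Every doxycycline library exceeded every vehicle library for 8 of the 8 tested genes in EW8 and for 7 of 8 in TC71, where 26.9% and 27.6% of all tested genes did so. The difference between the responses passed for 5 of 8 genes, S100A2, S100A4, S100A6, S100A11 and S100A13, each fitted larger in TC71, against 12.2% of all tested genes passing in that direction and 7.07% in the other. For S100A1 the difference was -0.36 (edgeR adjusted p = 0.878). The plot of fold changes by line shows TC71 above EW8 for 6 of the 7 other genes, and for S100A6 only a bound. The responses of FOS and JUN differed as well, by 2.21 (edgeR adjusted p = 6.41e-12) and 0.73 (adjusted p = 0.00217), TC71 minus EW8. In doxycycline libraries FOS averaged 1580 CPM in TC71 and 1078 CPM in EW8, and JUN 756 and 474 CPM. The lines were thus not compared at equal levels of the induced genes, and the part of this in the S100 differences was not tested.

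The lines also differed without induction. These contrasts use the same libraries as the responses and are not independent of them. With vehicle, 0 of the 8 tested genes were called higher in TC71 than in EW8 and 4 were called lower, against 11.6% and 18.9% of all tested genes. S100A3 was lower in TC71 by a log2 difference of -3.25 (SE 0.33, edgeR adjusted p = 1.01e-07) and S100A2 by -2.41 (SE 0.30, adjusted p = 1.57e-06). For S100A6, TC71 was at least 8.18-fold lower (adjusted p = 2.33e-08). S100A11 differed by -1.10 (SE 0.05, adjusted p = 4.83e-13), and by -0.99, under the fold limit, without TC71 vehicle replicate 1. S100A13 was higher in TC71 by 0.79 (adjusted p = 1.33e-05), under the fold limit. S100A4 differed by 0.25 (adjusted p = 0.0869), S100A16 by 0.67 (adjusted p = 0.456) and S100A1 by -0.42 (adjusted p = 0.643).

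With doxycycline the picture was different: 4 of 8 genes were called higher in TC71 and 2 lower, against 12.6% and 18.4% of all tested genes. S100A2 was higher in TC71 by 4.88 on the log2 scale (SE 0.13, edgeR adjusted p = 1.15e-15), S100A13 by 2.81 (SE 0.12, adjusted p = 3.33e-13), S100A16 by 2.51 (SE 0.12, adjusted p = 2.89e-12) and S100A4 by 2.12 (SE 0.12, adjusted p = 4.23e-11). S100A6 and S100A3 were lower in TC71, as with vehicle, by differences of -3.96 (SE 0.29, adjusted p = 4.04e-09) and -2.12 (SE 0.20, adjusted p = 3.38e-08). S100A11, lower in TC71 with vehicle, was higher there by 0.17 (adjusted p = 0.00265), under the fold limit. S100A1 did not pass (-0.78, adjusted p = 0.329).

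Compared per kilobase of exon, the members changed places. In EW8 vehicle libraries S100A11 averaged 289 CPM per kb, S100A4 21.12, S100A13 2.5, S100A3 1.62, S100A6 0.981, S100A2 0.8, S100A1 0.0675 and S100A16 0.0509. The ranges over libraries overlapped between S100A13 and S100A3, between S100A3 and S100A6, between S100A6 and S100A2, and between S100A1 and S100A16. With doxycycline the order in EW8 was S100A11 at 495 CPM per kb, S100A16 at 54.75, S100A4 at 36.07, S100A3 at 25.35, S100A6 at 9.61, S100A2 at 6.33, S100A13 at 4.95 and S100A1 at 0.191, with no overlap between neighbours. S100A16 thus went from rank 8 to rank 2. The full exon length was used, although reads on shared exon bases were not counted. Such bases are 33.5% of the exon bases of S100A13 and 18.3% of those of S100A1, which lowers both genes per kb. The order of S100A13 and S100A2 in EW8 doxycycline libraries is therefore not settled.

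In TC71 vehicle libraries S100A11 averaged 135 CPM per kb, S100A4 25.21 and S100A13 4.35. S100A3, S100A2, S100A16 and S100A1 followed between 0.17 and 0.0506 CPM per kb, each overlapping the next, and S100A6 was at 0. With doxycycline S100A11 averaged 559 CPM per kb, S100A16 312, S100A2 187, S100A4 157, S100A13 34.85, S100A3 5.83, S100A6 0.617 and S100A1 0.111, again with no overlap between neighbours. By full exon length S100A2 took rank 3 in TC71 and rank 6 in EW8, where its place against S100A13 is not settled.

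Summed over the 10 genes, the level was 228 ± 5.04 CPM in EW8 vehicle libraries (SD, n = 3) and 522 ± 7.08 CPM in EW8 doxycycline libraries, a ratio of 2.29. TC71 went from 128 ± 4.22 to 1448 ± 39.75 CPM, a ratio of 11.3. The sum moved from mostly 1 gene to several. S100A11 held 86.1% of it in EW8 vehicle libraries and 64.5% in EW8 doxycycline libraries, where S100A16 held 17.9%. In TC71 S100A11 held 71.7% with vehicle and 26.2% with doxycycline, where S100A16 held 36.6% and S100A2 20.2%. The sum was 0.0128 to 0.0133% of all counts in TC71 vehicle libraries and 0.137 to 0.14% in TC71 doxycycline libraries.

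**Figure D3:**
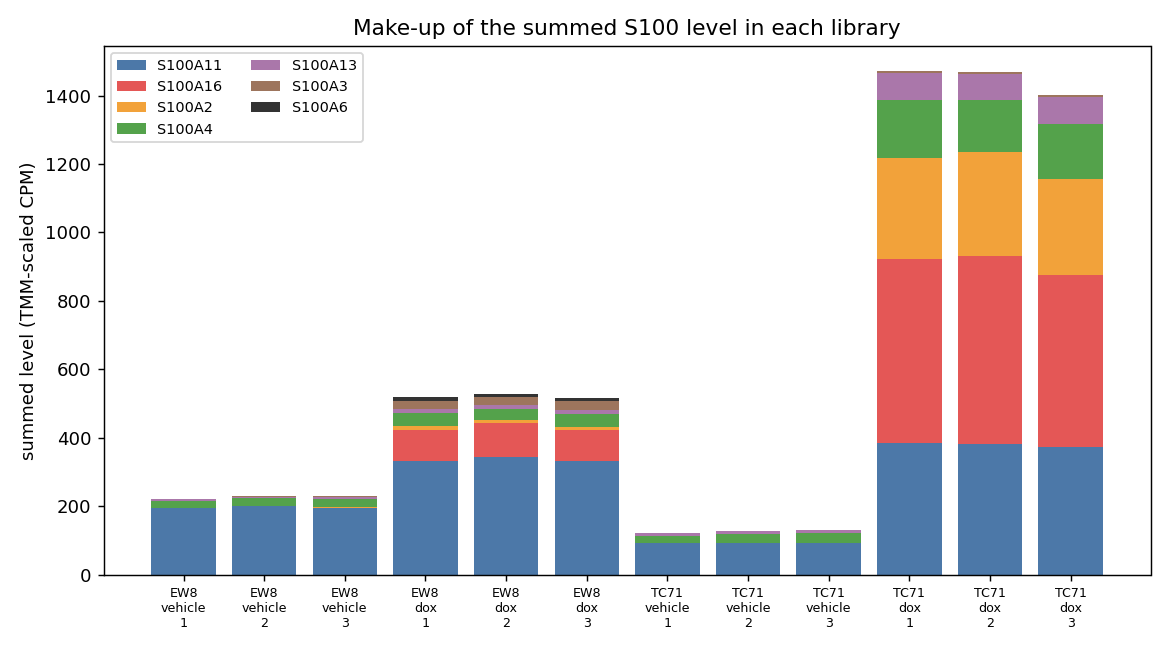
Summed level of the S100 genes in each of the 12 libraries, in TMM-scaled CPM, stacked by gene. S100A1, S100A8 and S100A9 are left out because their levels would not be visible. The TC71 doxycycline bars reach 1402 to 1473 CPM over all 10 genes and are made mostly of S100A16, S100A11 and S100A2, while S100A11 makes up most of every other bar.

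Markers of other cell types that use these genes were measured in the same libraries. The keratinocyte markers KRT5, IVL, KRT1 and DSG3 were at the floor in all groups. The summed level of the 10 keratinocyte markers was 168 to 174 CPM in EW8 vehicle libraries and 97.88 to 102 CPM in EW8 doxycycline libraries, mostly from TP63 (148 and 71.3 CPM). In TC71 that sum was 12.39 to 14.04 CPM with vehicle and 31.32 to 31.57 CPM with doxycycline, where the sum was thus higher along with S100A2, unlike in EW8. The markers did not move as one: in TC71 EPCAM averaged 0.707 and 11.93 CPM, SFN 0.221 and 7.4 CPM and TP63 1.84 and 0.392 CPM, and in EW8 SFN averaged 0.149 and 4.25 CPM. Their part in the S100A2 result was not tested. The fibroblast list includes S100A4, so it was summed over its other 9 markers. That sum was 168 to 182 CPM in EW8 vehicle libraries and 161 to 173 CPM in EW8 doxycycline libraries. In TC71 it was 272 to 314 CPM with vehicle and 308 to 322 CPM with doxycycline, overlapping ranges, where S100A4 averaged 25.84 and 161 CPM. The sum with S100A4 was 188 to 206 and 195 to 211 CPM in EW8, and 292 to 344 and 474 to 484 CPM in TC71. The other 9 fibroblast markers did not move as one either. With vehicle and doxycycline, FAP averaged 2.33 and 21.18 CPM in EW8 and 3.12 and 24.87 CPM in TC71. PDGFRB averaged 51.08 and 24.12 CPM in EW8 and 59.72 and 22.29 CPM in TC71. In TC71, COL1A1 averaged 26.07 and 92.77 CPM and DCN 7.92 and 2.39 CPM.

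The count table held 11 further S100 genes. Of these, 6 were at the floor in all libraries, among them S100P, the skin genes S100A7 and S100A7A and the myeloid gene S100A12, and 4 were tested. All 4 were called in both lines, 3 higher and 1 lower. Of all tested genes, 7.44% were called higher in both lines, and 3.38% were called lower in EW8 and 3.67% in TC71. The gene called lower, S100B, was called in TC71 on 4 to 8 counts with vehicle against 0 with doxycycline. S100A10, the partner of annexin A2 in a membrane-bound tetramer, went from 1.98, 1.57 and 2.01 CPM to 243, 237 and 254 CPM in EW8, and from 22.1, 24.7 and 24 CPM to 600, 573 and 584 CPM in TC71. Its log2 fold change was 7.04 (SE 0.09, edgeR adjusted p = 5.58e-20) in EW8, and that in TC71 was 4.63 (SE 0.07, adjusted p = 5.59e-19), a difference of -2.40 (adjusted p = 1.63e-11). TC71 doxycycline libraries still held the most S100A10, but the rise was larger in EW8.

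S100A5, known from olfactory neurons, started from vehicle libraries at the floor in both lines. Doxycycline brought a rise of at least 4.75-fold in EW8, while TC71 gave a bound of 17.6-fold. The mean of S100A14, an epithelial member, rose at least 1.72-fold in EW8 by the same bound, and its bound in TC71 was 3.26-fold. The EW8 doxycycline libraries held 6, 8 and 19 counts of S100A14, so replicate 1 was itself at the floor. S100B, a glial and Schwann cell protein encoded on another chromosome, fell in EW8 from 12.1, 12 and 9.97 CPM to 2.33, 2.37 and 2.69 CPM. Its log2 fold change there was -2.21 (SE 0.19, edgeR adjusted p = 1.06e-07). In TC71 S100B had 4 to 8 counts in the vehicle libraries and 0 with doxycycline, too few for a fold. SOX10, which marks Schwann cells, was at the floor in all groups.

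The genes around the cluster were read for comparison. Between chr1:151782506-153882039 the table listed 100 genes that are no S100 genes, 75 of them at the floor in all libraries and 18 tested. In EW8, 4 of the 18 were called higher and 0 lower, and in TC71 2 were called higher and 1 lower, with median log2 fold changes of 0.36 and 0.32. Of all tested genes, 11.4% were called higher and 3.38% lower in EW8, and 12.3% and 3.67% in TC71. Of the 18, 5 were at the floor under both treatments in EW8, and without these and with bounds in place of 4 fitted values the EW8 median was 0.01. In both lines the largest fitted change belonged to ENSG00000285867, a long non-coding RNA on the minus strand at chr1:153586813-153606283, which lies 602 bases downstream of S100A16 on the same strand. It had 0 counts in all 6 vehicle libraries, 21 to 23 counts in EW8 doxycycline libraries and 136 to 176 in TC71 doxycycline libraries, so the bound on its rise was at least 3.22-fold in EW8 but at least 30.5-fold in TC71. Its levels were high where those of S100A16 were high, at far lower depth.

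PRR9, an epidermal gene, was at least 3.48-fold higher with doxycycline in TC71. In EW8 it was called on 2 to 6 counts, at the floor in both groups, so no fold is given. HRNR, which encodes hornerin, was called in EW8 on 18 counts in doxycycline replicate 3, with 0 in every other EW8 library. NPR1, a natriuretic peptide receptor, was the 1 neighbour called lower, with 1.03, 1.27 and 1.16 CPM in TC71 vehicle libraries and 0.194, 0.191 and 0.728 CPM in TC71 doxycycline libraries (log2 fold change -1.62, SE 0.52, edgeR adjusted p = 0.0156). Of the 7 fused-type genes, which join an S100 domain to long repeats and serve the cornified skin layer, 4 were at the floor and 3 were tested. Of these, 2 were called higher in EW8 (FLG and HRNR), against 11.4% of all tested genes. In TC71, where 12.3% of all tested genes were called higher, 0 were called. FLG passed the adjusted p there at a log2 fold change of 0.75 (edgeR adjusted p = 0.00802). The EW8 vehicle libraries were at the floor for FLG, with 0 to 4 counts, and its EW8 doxycycline libraries had 10 to 18, a rise of at least 1.96-fold. In TC71 FLG averaged 8.96 CPM with vehicle and 15.1 CPM with doxycycline.

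**Figure D4:**
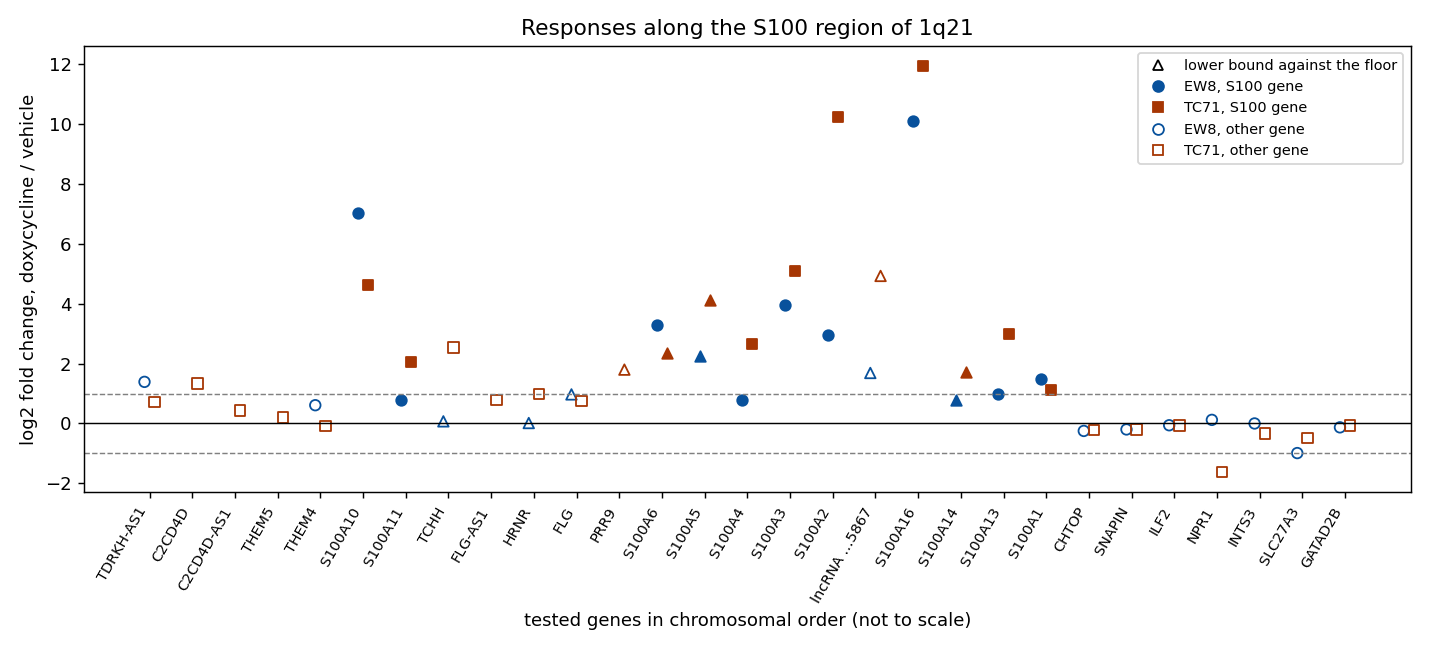
Log2 fold change with doxycycline of the tested genes around the S100 cluster, in chromosomal order and not to scale, with filled symbols for S100 genes and open symbols for other genes. Triangles are lower bounds where vehicle libraries were at the floor, points where both groups were at the floor are left out, and dashed lines mark the fold limits. From S100A6 to S100A1 every plotted value lies above 0, and from CHTOP to GATAD2B, beyond S100A1, 1 value passes a limit, that of NPR1 in TC71.

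S100 proteins act through other proteins, and 28 genes for receptors and partners were listed, of which 26 were tested. In EW8, 7 were called higher and 1 lower, and in TC71 8 were called higher and 0 lower, with medians of 0.03 and 0.16 on the log2 scale. Of all tested genes, 11.4% were called higher and 3.38% lower in EW8, with 12.3% and 3.67% in TC71. The 1 lower call among 26 genes in EW8 is near the share of all tested genes. The 7 genes called higher in EW8 were also called higher in TC71, as were 7.44% of all tested genes in both lines, and they included both cargoes that S100A13 helps to release. FGF1 went from 0.248, 0.349 and 0.0539 CPM to 71.2, 67.4 and 67.6 CPM in EW8 and from 0.42, 0.161 and 0.116 CPM to 195, 188 and 181 CPM in TC71. Its log2 fold change was 8.36 (SE 0.21, edgeR adjusted p = 6.74e-16) in EW8, and that in TC71 was 9.66 (SE 0.20, adjusted p = 3.79e-17). IL1A, which encodes interleukin-1 alpha, rose by 9.23 on the log2 scale in EW8 cells (SE 0.22, adjusted p = 2.44e-16), and TC71 gave 6.05 (SE 0.29, adjusted p = 3.82e-12). Vehicle libraries held 6 to 39 counts of IL1A in EW8 and 2 to 10 in TC71. For FGF1 they held 3 to 16 in EW8 and 6 to 22 in TC71. The folds of both genes and their differences between the lines thus rest on few vehicle counts. The difference between the responses, TC71 minus EW8, was -3.18 for IL1A (SE 0.68, adjusted p = 0.00261), opposite in sign to that of S100A13. For FGF1 it was 1.30 (SE 0.51) and did not pass, with adjusted p = 0.087.

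AHNAK, the scaffold that binds the S100A10 and annexin A2 complex, rose in EW8 by 4.80 on the log2 scale (SE 0.14, edgeR adjusted p = 7.14e-15), and its TC71 value was 3.63 (SE 0.13, adjusted p = 1.09e-13). Among the other genes called in both lines were, named after their values were seen, ANXA2 (2.79 and 2.18 on the log2 scale), ANXA1 (2.19 and 1.57) and MYH9, the non-muscle myosin heavy chain bound by S100A4 (2.12 and 1.99). CD36 was called in TC71 alone (3.55), from 4 to 12 counts in the TC71 vehicle libraries. Its EW8 value was 1.08 (adjusted p = 0.315) and the difference between the lines did not pass (adjusted p = 0.147). RYR1, a calcium release channel that S100A1 binds in muscle, fell in EW8 by 1.54 (SE 0.33, adjusted p = 0.000848). Its TC71 value was 0.19 (adjusted p = 0.664), and the difference between the responses, 1.73 (SE 0.45), passed with adjusted p = 0.0104. AGER, which encodes RAGE, passed in neither line (-0.40 in EW8, adjusted p = 0.266, and -0.35 in TC71, adjusted p = 0.33), and TLR4 had too few counts to be tested.

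**Figure D5:**
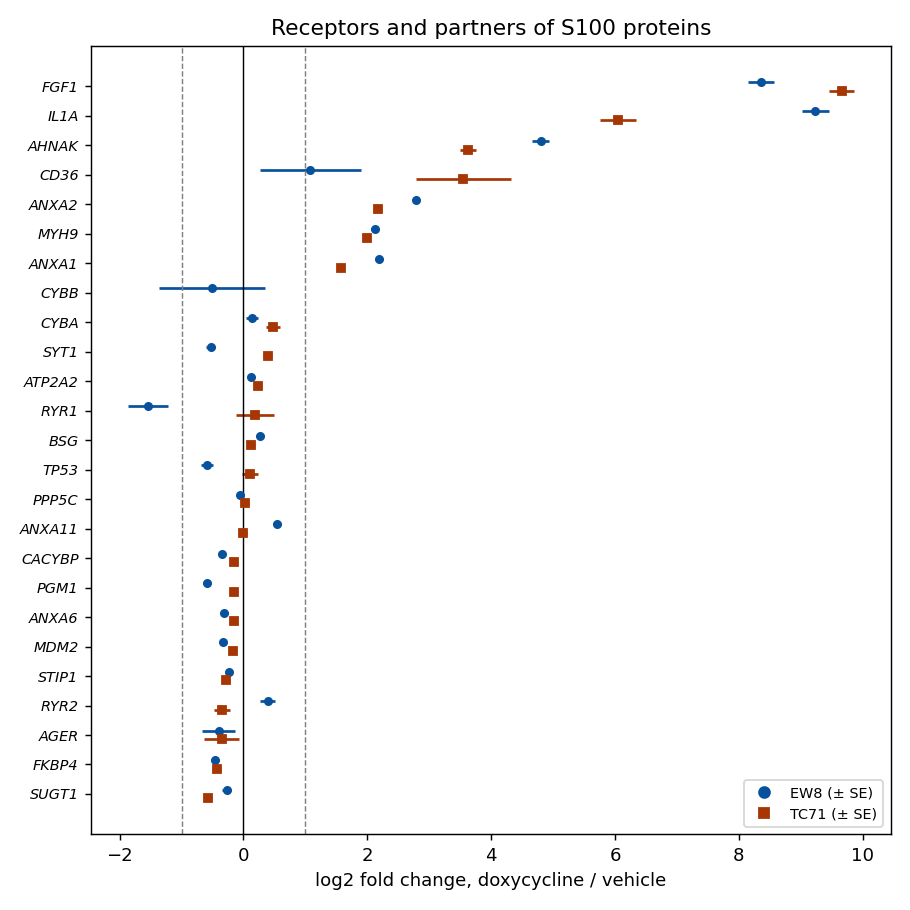
Log2 fold change with doxycycline of 25 of the tested genes for S100 receptors and partners in EW8 and TC71, with standard errors, ordered by the TC71 value. Dashed lines are the fold limits, and the CYBB value for TC71 is left out because it was near the floor. FGF1, IL1A, AHNAK, ANXA2, MYH9 and ANXA1 lie above the limit in both lines and most other genes lie within it.

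Across the 12 libraries the members fell into more than one pattern, described here by Pearson's r of log2 CPM between genes, which share the libraries and their 4 groups. S100A4 and S100A13 were most alike among the members (r = 0.977), both being highest in TC71 doxycycline libraries. S100A3 and S100A6 were alike (r = 0.936), both being highest in EW8 doxycycline libraries. S100A16 was closest to S100A2 (r = 0.918), and S100A13 and S100A6 had an r of -0.007. Over all tested genes, the most similar to S100A3 was UPP1 (r = 0.995), to S100A4 MICA (r = 0.990), to S100A6 FEM1C (r = 0.995), to S100A11 ALCAM (r = 0.997) and to S100A13 PIK3C3 (r = 0.996). S100A16 was closest to ENSG00000182021 (r = 0.996) and S100A1 to NPIPB13 (r = 0.912). These names single out little: 17 genes had an r over 0.99 with S100A16, and 3 to 10 had one with each of the other members except S100A1, for which there were 0.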

How the data were processed

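Polyadenylated RNA was sequenced as read pairs from stranded libraries. The authors checked reads with FastQC, aligned them with STAR to hg38 and counted them over GENCODE 29 exons with featureCounts 2.0.1, and they deposited whole-number counts per gene without normalization. Per the file headers, mates were counted separately, strand was ignored, and multi-mapped reads and reads on more than 1 gene were dropped, which lowers overlapping genes. Exon lengths in bases, also deposited by the authors, served for CPM per kb.

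Groups and replicates were taken from the sample labels, and symbols were matched for 58252 of 58721 genes (99.2%). edgeR 4.0.16 (R 4.3.3) was fitted to all 12 libraries with 4 groups as levels after filterByExpr (21013 genes, 99.95% of counts) and TMM scaling. Doxycycline was compared with vehicle within each line, these responses with each other, and TC71 with EW8 under each treatment. Calls needed an adjusted p below 0.05 plus a log2 fold change beyond 1 either way, and the difference of responses the adjusted p alone. A group with all libraries at or under 6 counts (3 read pairs) was at the floor, and its fold is given as a bound. DESeq2 1.42.0, other scalings, filters, a replicate block and left-out libraries were the alternatives. The fit was tested on simulated counts.

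The members, gene lists and tests were chosen with earlier results of these data known. All 10 members and JUN and FOS are named, and some other genes that the rule covers are not reported here. Of each list the genes called in both lines in the same direction are named, or the 4 with the largest smaller absolute change if there were more, and of the neighbours the 3 with the largest change in each line among those past the test.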

Additional observations from a re-analysis of the deposited data

Results flagged for a closer look

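The response to doxycycline differed between the lines, by the test of the difference itself, for 5 of the S100 genes. On the log2 scale, TC71 minus EW8, the differences were 7.29 for S100A2, 2.02 for S100A13, 1.87 for S100A4 and 1.27 for S100A11, each larger in TC71. For S100A6 the fitted difference was 4.60, but all TC71 vehicle libraries held 0 counts, and the bound for TC71 lies under the measured rise in EW8, so its direction is not settled. The responses of the induced genes also differed, by 2.21 for FOS (edgeR adjusted p = 6.41e-12) and 0.73 for JUN (adjusted p = 0.00217), TC71 minus EW8. What part this had in the S100 differences was not tested.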

How the results depend on the processing

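Of 766 alternative values of the members' log2 fold changes, 745 kept their direction and their side of the threshold, 16 gained a call, 1 lost it and 4 turned. Many alternatives left out a library outside the compared groups. Such a library enters only through the scaling, the filter and the shared spread, so part of this agreement is built in. All 4 turns came from leaving out 1 library. For S100A1 the difference of responses became 0.63 without TC71 vehicle replicate 1 and 0.00 without TC71 doxycycline replicate 2, with a range of -0.88 to 0.63 over all left-out libraries. Its line difference with vehicle became 0.04 without TC71 vehicle replicate 3, with a range of -1.43 to 0.04. For S100A16 the line difference with vehicle became -1.15 without that same library, where it had 18 counts, and the range was -1.15 to 1.69.

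Requiring at least 10 counts in every library left 3 members (S100A4, S100A11 and S100A13), because the others had low vehicle levels, and 1 was then called in EW8, 3 in TC71, 3 for the difference, 1 between the lines with vehicle and 2 with doxycycline. With no fold limit, 7 were called in EW8. With 1 library left out, the counts were 4 to 5 in EW8, 7 to 8 in TC71, 5 to 6 for the difference, 3 to 4 between the lines with vehicle and 6 with doxycycline. DESeq2 gave 4, 7 and 6 for the first 3 counts. The difference was not run on 6 libraries, which hold 1 line or 1 treatment.

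No sign of pairing by replicate number was seen. Same-numbered vehicle and doxycycline libraries of a line correlated at -0.028 to 0.010 in their deviations from the group means over 6 pairs. Of the 12 libraries, 1 correlated best with its own number. With so few libraries per group this check cannot exclude a pairing. A replicate block gave 5 calls in EW8, 7 in TC71, 5 for the difference, 4 between the lines with vehicle and 6 with doxycycline.

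No scaling turned the direction of a called gene of the lists. Low vehicle counts limit the folds of S100A16, S100A6 and S100A1. The TC71 folds of S100A2 and S100A3 also rest on few vehicle counts, 9, 14 and 17 for S100A2 and 6, 11 and 10 for S100A3.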

Other observations

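Among the EW8 vehicle libraries, replicate 3 held the highest and replicate 1 the lowest level of S100A2, S100A3, S100A4 and S100A6, a pattern noticed after the values were seen. The other 4 tested members did not share it in full. S100A11 and S100A1 were also lowest in replicate 1 but highest in replicate 2. S100A13 was also highest in replicate 3 but lowest in replicate 2, and S100A16 was highest in replicate 1 and lowest in replicate 3. JUN in the same libraries was 20.34, 24.58 and 19.83 CPM and FOS 36.76, 37.57 and 35.94 CPM, in which replicate 3 was lowest. Of the 1436 genes called higher in EW8 and above 6 counts in every EW8 vehicle library, 34.9% were highest in replicate 3, against 32.3% of all 17720 tested genes above that level.

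Of the genes called higher in TC71 with more than 6 counts in every TC71 vehicle library, 51.4% were lowest in TC71 vehicle replicate 1, against 40.6% of all tested genes. S100A2, S100A3 and S100A4 were lowest in that library, and S100A11, S100A13 and S100A1 were highest in it.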
